A study of Rattus norvegicus with 8 samples.

Results

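Messenger RNA of the genes that write, read and erase DNA methylation was followed in the hippocampus and the hypothalamus of rats. The set was fixed by name and held 9 genes: the DNA methyltransferases Dnmt1, Dnmt3a and Dnmt3b, the dioxygenases Tet1, Tet2 and Tet3, the methyl-CpG binding proteins Mbd1 and Mbd2, and Uhrf1, a partner of Dnmt1. Of these, 6 were listed in both deposited tables, among 15892 symbols that the tables shared. Tet1, Tet2 and Tet3 were listed in neither table, under these symbols or under the synonyms that RefSeq gives for them, so the erasers were not analysed here. All 8 libraries came from male Sprague Dawley rats, an outbred strain, aged 2 months at the start, which ate an omega-3 fatty acid diet (DHA, docosahexaenoic acid, in the labels) and drank water with 15% fructose for 6 weeks. There were 4 libraries of hippocampus and 4 of hypothalamus, and no library of another diet was analysed here, so no effect of fructose or of DHA can be given. Nothing in the labels tells whether the libraries of a tissue came from separate animals, so the errors given measure the spread between libraries, which may be technical.

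In mammals, DNA methylation is placed mainly on cytosines followed by guanine (CpG). Dnmt3a and Dnmt3b set new marks, and Dnmt1 copies marks onto the new strand after replication, guided by Uhrf1, which binds DNA that is methylated on a single strand. Proteins with a methyl-CpG binding domain read the mark and bring repressor complexes, while the Tet enzymes oxidise it as a step towards its removal. In mouse brain, Dnmt1 and Dnmt3a are made in mature neurons, and Dnmt3b is known chiefly from the embryo.

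The tissue labels were borne out by their markers. The 9 hypothalamic neuron markers (Avp and Oxt among them) summed to 6499 to 11599 FPKM (fragments per kilobase of transcript, scaled to sequencing depth) in the hypothalamus libraries and to 4.16 to 10.7 in hippocampus, and the 9 pallial neuron markers summed to 2845 to 4198 in hippocampus and 205 to 342 in hypothalamus. Some libraries stood apart. The choroid plexus markers listed for hippocampus, 5 of 6, summed to 6424 and 4820 FPKM in hippocampus replicates 3 and 4 but to 35.6 and 36.9 in replicates 1 and 2, with Otx2 at 0 throughout. In hypothalamus, where all 6 were listed, they summed to 22.4 to 98.0. Hippocampus replicate 2 and hypothalamus replicate 1 lay farthest from the other libraries of their tissue, with a median absolute log2 difference of 0.38 and 0.33 over genes, against 0.13 to 0.23 for the other libraries. The number of reads was unknown.

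Within each tissue the 6 listed genes covered a wide range of levels and kept a single order. Mbd2 had the highest FPKM, followed by Mbd1, Dnmt1, Dnmt3a, Uhrf1 and Dnmt3b, in all 4 libraries of hippocampus and all 4 of hypothalamus. For each of the 5 pairs of neighbours in that order, the lowest library of the higher gene lay above the highest library of the lower gene, in both tissues. The closest pair was Dnmt1 and Dnmt3a in hypothalamus, where the lowest Dnmt1 value was 6.42 FPKM and the highest Dnmt3a value 5.79. In hippocampus the mean of Mbd2 was above that of 86.9% of listed symbols, and the mean of Dnmt3b above that of 26.5%. FPKM is given per transcript length, so these levels can be set against each other within a table.

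**Figure D1:**
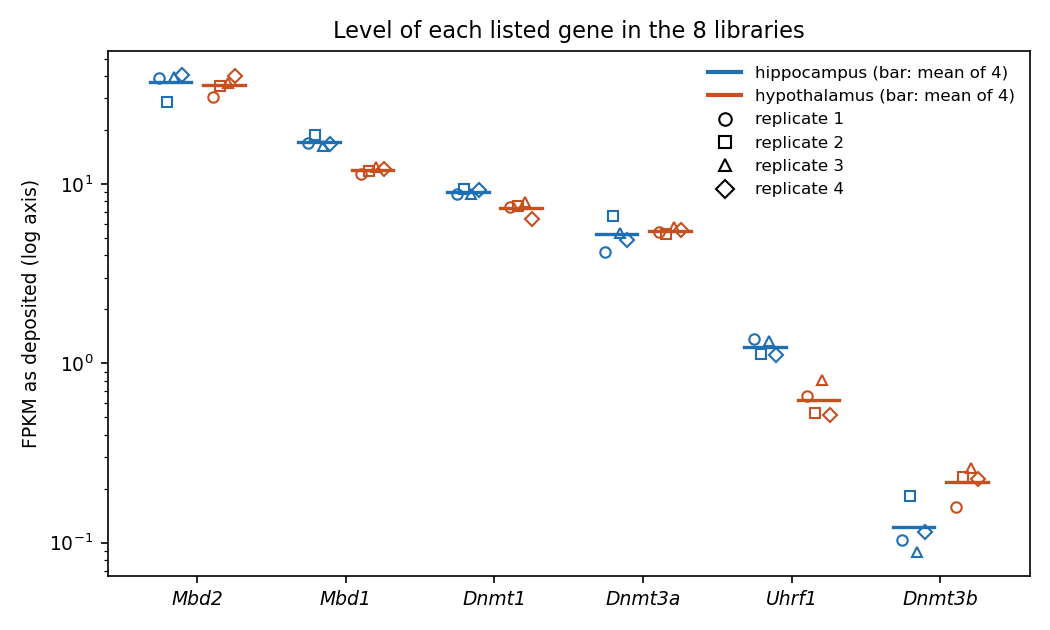
FPKM as deposited (log axis) of the 6 listed genes; each point is a library, its shape the replicate, blue hippocampus and orange hypothalamus, and bars are means of 4 libraries. Mbd2 lies at the top near 36.9 and 35.5 FPKM and Dnmt3b at the bottom near 0.122 and 0.219, and the orange points of Mbd1, Dnmt1 and Uhrf1 all lie below the blue ones.

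The tissues were compared by setting levels side by side. Each tissue has a table of its own, and no source used here gives a normalisation shared by both, so tissue and table cannot be told apart and no p-value is given across them. All 8 libraries were brought to a joint scale by the median of their ratios over shared symbols, and differences were taken on the log2(FPKM + 1) scale, which understates changes of low genes. The word called is kept for genes that differed by 1 or more (2-fold) and showed no overlap between the 4 libraries of each tissue. The comparison took in the 10554 genes whose scaled mean over all 8 libraries reached 1 FPKM. Dnmt1, Dnmt3a, Mbd1 and Mbd2 passed this limit, and Uhrf1 and Dnmt3b did not.

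None of the 4 genes that passed was called in either direction. Of all genes compared, 13.3% were called higher in hypothalamus and 13.4% lower, so 0 of 4 is near what is usual in these tables. Without the limit on size, Dnmt1 and Mbd1 were lower in hypothalamus with no overlap between libraries, as were those of 27.7% of all genes compared. None of the 4 was higher without overlap, against 25.7% of all genes, and the libraries of Dnmt3a and Mbd2 overlapped. In either direction, 2 of 4 showed no overlap, and so did 53.4% of all genes. Uhrf1, under the limit on level, was also lower without overlap, and over all 15892 shared symbols this was so for 19.8%. The median difference of the 4 genes was -0.38, and that of all genes was -0.04. With values as deposited these medians were -0.16 and 0.18.

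The promoters of Dnmt1, Mbd1 and Uhrf1 are shown because these are the listed genes whose libraries did not overlap. Sequences are those of RefSeq on the build GRCr8, from 250 bases before to 50 after the start site, 5′ to 3′ on the strand of the gene. Capitals mark CpG, the dinucleotide on which these proteins act. The windows are chr8:27762792-27763091 on the minus strand for Dnmt1, chr18:70145002-70145301 on the plus strand for Mbd1 and chr9:1222936-1223235 on the plus strand for Uhrf1. Uhrf1 has 3 annotated starts, and the window richest in CpG is shown.
Dnmt1: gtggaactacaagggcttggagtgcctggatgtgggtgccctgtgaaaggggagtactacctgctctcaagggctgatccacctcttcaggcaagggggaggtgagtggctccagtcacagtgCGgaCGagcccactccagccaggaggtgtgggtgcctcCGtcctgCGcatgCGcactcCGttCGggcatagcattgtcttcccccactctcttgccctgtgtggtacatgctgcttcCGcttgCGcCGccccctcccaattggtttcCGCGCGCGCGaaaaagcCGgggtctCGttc
Mbd1: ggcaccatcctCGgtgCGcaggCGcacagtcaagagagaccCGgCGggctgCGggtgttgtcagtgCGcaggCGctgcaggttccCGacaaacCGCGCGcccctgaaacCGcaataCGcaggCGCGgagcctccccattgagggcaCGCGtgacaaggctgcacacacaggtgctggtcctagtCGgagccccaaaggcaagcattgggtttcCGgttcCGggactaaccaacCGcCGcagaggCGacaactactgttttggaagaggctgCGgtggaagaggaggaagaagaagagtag
Uhrf1: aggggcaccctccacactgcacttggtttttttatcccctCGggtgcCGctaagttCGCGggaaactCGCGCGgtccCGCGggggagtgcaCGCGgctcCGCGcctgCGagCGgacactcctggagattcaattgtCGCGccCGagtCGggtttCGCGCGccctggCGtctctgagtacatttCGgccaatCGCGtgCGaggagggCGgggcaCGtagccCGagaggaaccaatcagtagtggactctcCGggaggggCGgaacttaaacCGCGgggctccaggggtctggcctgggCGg

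These windows held 17 CpG for Dnmt1, 25 for Mbd1 and 35 for Uhrf1. Over 33469 promoter windows of 300 bases the median was 7, with quartiles of 3 and 19. The Dnmt1 window thus lay between the quartiles, with 71.0% of windows holding fewer CpG. Mbd2 held 39, as did Tet2, and Dnmt3a 21. The table has windows for 8 of the 9 genes, Dnmt3b being the exception. Several genes had further starts that were poorer in CpG: Uhrf1 with 8 and 13, Tet1 with 3, 4 and 16, and Tet3 with 3, 3, 15 and 23. Motifs were searched on both strands. The palindromic consensus of NRF1 was found in the Dnmt1 window, 83 bases before the start site, and in 0.852% of all windows. The motif of E2F (TTTCGCGC or TTTGGCGC) was found in the Dnmt1 window, in the Uhrf1 window shown and in 0.792% of all windows. Its match lay 25 bases after the start site in Dnmt1 and 99 bases before the start site in Uhrf1. The Uhrf1 windows with 8 and 13 CpG did not hold this motif. The motifs of NRF1 and E2F themselves hold CpG, and their shares of all windows were not matched for CpG content. CCAAT was found in all 3 windows shown and in 37.5% of all windows. Its 2 matches in the Dnmt1 window lie 8 and 11 bases after the start site and overlap each other. These matches describe letters only, and the expression tables do not bear on binding or on methylation at these sites.

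Dnmt1, the maintenance methyltransferase, was listed at 8.77, 9.37, 8.82 and 9.27 FPKM in hippocampus replicates 1 to 4 and at 7.42, 7.56, 7.97 and 6.42 in hypothalamus. Every hypothalamus library lay below every hippocampus library. The mean was 9.06 ± 0.31 (SD, n = 4) against 7.34 ± 0.66, and the log2 difference of hypothalamus from hippocampus was -0.48 ± 0.07 (SE). The hypothalamus level was 31.1% lower after joint scaling and 18.9% lower with values as deposited. The libraries stayed apart under every scaling, filter and left-out library tried, over which the difference ran from -0.54 to -0.27.

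Uhrf1, which guides Dnmt1 to newly copied DNA, was low in both tissues. Its FPKM were 1.37, 1.13, 1.34 and 1.11 in hippocampus and 0.660, 0.531, 0.807 and 0.515 in hypothalamus, again with no overlap. The mean was 1.24 ± 0.14 FPKM in hippocampus and 0.628 ± 0.14 in hypothalamus (SD, n = 4). The log2 difference was -0.57 ± 0.08 (SE), and it was -1.10, past the 2-fold size but under the limit on level, with a pseudocount of 0.1 in place of 1. The ratio of Uhrf1 to Dnmt1 within a library, chosen after the values were seen, does not depend on a scaling factor. It was 0.137 ± 0.020 in hippocampus and 0.0852 ± 0.013 in hypothalamus, and the lowest hippocampus value, 0.120, lay above the highest hypothalamus value, 0.101. Ratios of other pairs, some of which overlapped, are named with Mbd2.

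Dnmt3a, a de novo methyltransferase, gave no direction that held. Summed over its loci it stood at 4.16, 6.64, 5.34 and 4.86 FPKM in hippocampus and at 5.38, 5.24, 5.79 and 5.53 in hypothalamus. All 4 hypothalamus libraries fell within the range of hippocampus. The log2 difference was -0.13 ± 0.12 (SE) after joint scaling and 0.07 with values as deposited. Dnmt3a had 2 loci in the hippocampus table but a single one in that of hypothalamus. The first locus of hippocampus was at 4.15, 3.15, 1.94 and 1.36 FPKM in replicates 1 to 4, and the second was at 0.00972, 3.49, 3.40 and 3.50. The second locus was thus near empty in replicate 1, which held 99.8% of its Dnmt3a value in the first, against 28.0 to 47.4% in the other replicates. When the highest locus was taken in place of the sum, all hypothalamus libraries lay above all hippocampus libraries, with a difference of 0.29. A sum of FPKM over loci of unequal length is not the FPKM of a joined gene, so the direction for Dnmt3a depends on how the loci are joined.

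**Figure D2:**
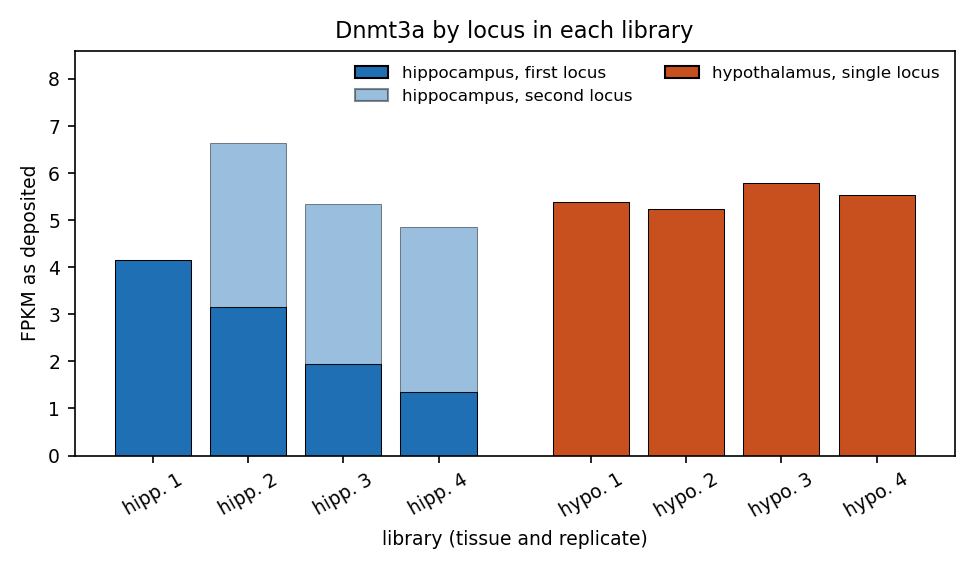
Dnmt3a in each library as stacked FPKM of its loci as deposited; dark and pale blue are the first and second locus of hippocampus, orange the single locus of hypothalamus. The pale segment is missing in hippocampus replicate 1 (0.00972 FPKM) and lies between 3.40 and 3.50 in replicates 2 to 4, and the orange bars reach 5.24 to 5.79.

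The near-empty locus was not particular to Dnmt3a. Of 801 genes with 2 loci in the hippocampus table, a single one in that of hypothalamus and a mean of at least 1 FPKM, 229 (28.6%) had a locus that held under 1% of the gene's value in replicate 1 and over 10% in each other replicate. The same pattern centred on replicates 2, 3 and 4 was found for 6, 0 and 2 genes.

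Dnmt3b, the other de novo methyltransferase, was the lowest of the listed genes. It stood at 0.103, 0.181, 0.0890 and 0.115 FPKM in hippocampus and at 0.157, 0.232, 0.260 and 0.227 in hypothalamus. Hippocampus replicate 2 lay above hypothalamus replicate 1, so the tissues overlapped. The log2 difference of 0.09 ± 0.04 (SE) was upward, in contrast to Dnmt1, and it was 0.39 with a pseudocount of 0.1 in place of 1. The tissues no longer overlapped without hippocampus replicate 2 (0.11) or without hypothalamus replicate 1 (0.11). Dnmt3l, a cofactor of the de novo enzymes in mouse germ cells, was listed at 0 in all 4 hippocampus libraries and in 2 of hypothalamus, where the other 2 were at 0.0285 and 0.0614.

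Within each library the 3 methyltransferases were also expressed as shares of their summed FPKM. Dnmt1 made up 63.0 ± 4.1% in hippocampus and 56.2 ± 2.4% in hypothalamus (SD, n = 4), and Dnmt3a 36.1 ± 4.0% and 42.1 ± 2.3%. Both shares overlapped between the tissues. The share of Dnmt3b was 0.836 ± 0.21% in hippocampus and 1.68 ± 0.31% in hypothalamus, and did not overlap, with a highest hippocampus value of 1.12% and a lowest hypothalamus value of 1.21%. The level of Dnmt3b itself was very low and overlapped, at 0.0890 to 0.181 FPKM in hippocampus and 0.157 to 0.260 in hypothalamus. Its share also depends on Dnmt1 and on the summed loci of Dnmt3a. How often shares of other genes show no overlap was not computed. With the highest locus in place of the sum, the hippocampus shares were 70.7% for Dnmt1 and 28.4% for Dnmt3a.

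Mbd1, a reader that also recognises unmethylated CpG through a zinc finger, had the largest difference of the 4 listed genes that passed the limit on level. It was at 17.0, 18.7, 16.3 and 16.7 FPKM in hippocampus and at 11.4, 11.9, 12.5 and 12.1 in hypothalamus. Every hypothalamus library lay well below every hippocampus library. The means were 17.2 ± 1.06 and 11.97 ± 0.42 FPKM (SD, n = 4) and the log2 difference -0.71 ± 0.06 (SE), or 40.8% lower after joint scaling and 30.3% lower as deposited. Over all settings tried it ran from -0.81 to -0.49, always without overlap and always under the 2-fold limit.

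Mbd2, the reader subunit of the nucleosome remodelling and deacetylase complex NuRD, was the most abundant of the set. It stood at 38.9, 28.6, 39.3 and 40.7 FPKM in hippocampus and at 30.6, 35.1, 36.5 and 39.9 in hypothalamus. Replicate 2 was the low library of hippocampus, and the tissues overlapped. The log2 difference was -0.28 ± 0.14 (SE), with -0.05 as deposited and -0.39, with no overlap, without hippocampus replicate 2. The ratio of Mbd2 to Mbd1 within a library, chosen after the values were seen, was 2.17 ± 0.43 in hippocampus and 2.96 ± 0.26 in hypothalamus. The highest hippocampus value, 2.44, lay below the lowest hypothalamus value, 2.67. Other ratios that were taken, of Dnmt1 to Mbd1, Dnmt1 to Dnmt3a and Uhrf2 to Uhrf1, overlapped between the tissues. The share of all gene pairs whose ratio shows no overlap was not computed.

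**Figure D3:**
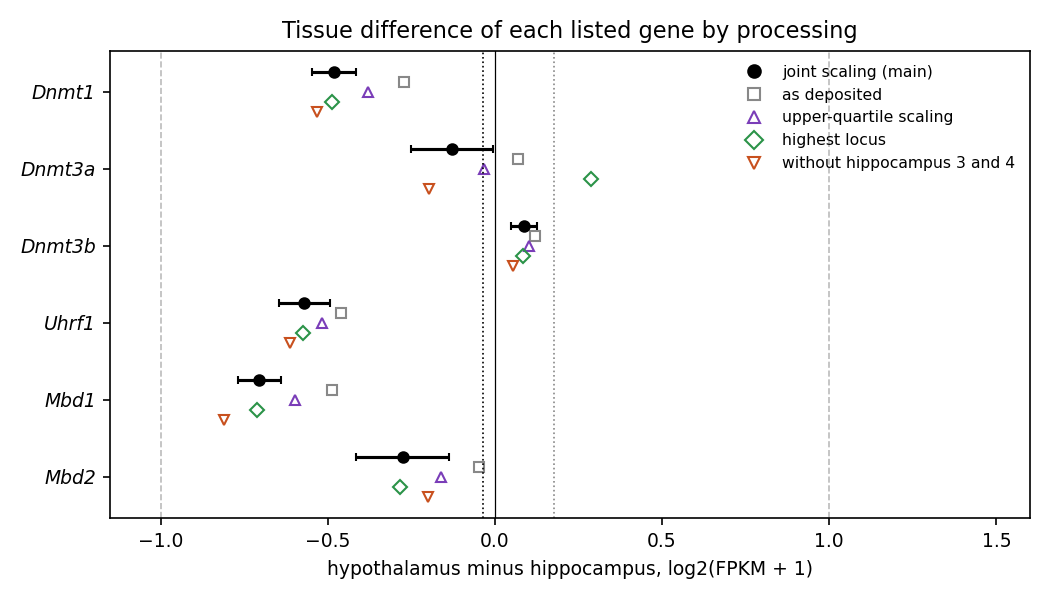
Difference of hypothalamus from hippocampus on the log2(FPKM + 1) scale for the 6 listed genes; filled points are the main values with SE bars, open symbols other settings, dotted lines the median of all genes after joint scaling (-0.04) and as deposited (0.18), dashed lines the 2-fold limit. Dnmt1, Uhrf1 and Mbd1 stay left of 0 in each setting drawn, and Dnmt3a runs from -0.20 to 0.29.

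Spread within a tissue was small for most of these genes. The SD of log2(FPKM + 1), after joint scaling, over hippocampus libraries was 0.05 for Dnmt1, 0.11 for Mbd1, 0.22 for Mbd2 and 0.24 for Dnmt3a, and the median over all genes compared was 0.26. In hypothalamus it was 0.12, 0.07, 0.17 and 0.06 in the same order, with a median of 0.20 over all genes.

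Among all genes compared, those nearest to Mbd1 by root mean square difference of log2(FPKM + 1) over the 8 libraries were Me3 (0.06), Them4 (0.10) and Papd7 (0.11). Those nearest to Mbd2, the gene with the highest level, were Zmat2 (0.11), Prkag1 (0.14) and Kat2a (0.15).

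The other genes of the DNA methylation cycle were described as 5 lists, of which 49 of 63 genes were listed in both tables and passed the limit on level. By the 2-fold rule 2 were called higher in hypothalamus and 4 lower, against 13.3% and 13.4% of all genes, and the distance from these shares was not tested. Among genes grouped as other readers, 4 of 8 passed, with 1 called higher and 0 lower. By lack of overlap alone, 1 of the 4 was lower and 1 higher, against 27.7% and 25.7% of all genes compared. A place in this group does not show that a protein binds methylated DNA, and binding was not measured. Mbd6, which carries a methyl-CpG binding-like domain, was at 3.33, 1.99, 2.15 and 2.14 FPKM in hippocampus and at 5.15, 10.7, 11.2 and 11.5 in hypothalamus. It was higher there without overlap, with a difference of 1.42 ± 0.29 (SE). The call was kept under each setting tried, over which the difference ran from 1.28 to 1.80. Mbd3, the NuRD subunit that stands in for Mbd2, overlapped at 53.7 ± 24.3 and 41.6 ± 5.8 FPKM (SD, n = 4), as did Uhrf2, the paralogue of Uhrf1, at 19.0 ± 4.0 and 18.7 ± 5.9.

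Of 13 genes of base excision repair, demethylation and the supply of the Tet cofactor 2-oxoglutarate, 1 was called lower in hypothalamus and 12 were not called. By lack of overlap alone, 5 of the 13 were lower and 2 higher, against 27.7% and 25.7% of all genes compared. Tdg, the glycosylase that removes the products of Tet, was at 18.9, 19.96, 22.9 and 23.1 FPKM in hippocampus and at 8.61, 7.05, 6.68 and 7.81 in hypothalamus. This difference of -1.60 ± 0.08 (SE) rests on 2 loci summed in each table. Without hippocampus replicates 3 and 4, which held choroid plexus markers, 3 of the list were called lower. The count was also 3 with a pseudocount of 0.1, and 2 without hippocampus replicate 1, hippocampus replicate 4, hypothalamus replicate 1 or replicate 1 of both tissues. It was 0 where only symbols with a single locus in each table entered, since Tdg then drops out. Idh3a and Idh2, mitochondrial isocitrate dehydrogenases, had the highest mean level of the list over both tissues. The hippocampus mean of Idh3a was 88.3 ± 3.6 FPKM and its hypothalamus mean 111 ± 14.3 (SD, n = 4). Its libraries overlapped after joint scaling, with a difference of 0.09, and lay higher in hypothalamus without overlap as deposited, with 0.32. Idh2 overlapped on both scales, at 66.5 ± 32.1 and 51.8 ± 1.9 FPKM.

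Of 9 partners of the writers that passed, 2 were called lower in hypothalamus and none was called higher. By lack of overlap alone, 2 of the 9 were lower and 3 higher, against 27.7% and 25.7% of all genes compared. Pcna, the replication clamp to which Dnmt1 binds, was at 72.5, 45.2, 74.9 and 92.4 FPKM in hippocampus and at 32.5, 20.2, 20.2 and 22.0 in hypothalamus. All hypothalamus libraries were lower, with a difference of -1.76 ± 0.25 (SE). Usp7, a deubiquitinase that binds Dnmt1 and Uhrf1, differed by -1.14 ± 0.10 (SE), a call lost with values as deposited (-0.91), and had 2 loci in the hippocampus table against 1 for hypothalamus. Ehmt2 and Trim28, a histone methyltransferase and a corepressor, had the highest mean level of the list over both tissues, while Pcna and Usp7 lay above them in hippocampus. Ehmt2 differed by 0.98 ± 0.21 (SE) and Trim28 by 0.56 ± 0.04, both without overlap, higher in hypothalamus and under the 2-fold limit. Ehmt2 passed it in 5 of the other settings, with values as deposited among them.

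Of 11 NuRD and corepressor genes that passed, none was called in either direction. Without the limit on size, 2 of the 11 were lower without overlap and 0 higher, against 27.7% and 25.7% of all genes compared. Hdac2, named after its value was seen, had the largest difference of the list. It was lower without overlap, at -0.96 ± 0.26 (SE), just under the 2-fold limit. In 5 of the other settings 1 gene of the list was called lower. Rbbp7, a histone-binding subunit, overlapped at 69.5 ± 6.6 FPKM in hippocampus and 62.6 ± 11.5 in hypothalamus (SD, n = 4). Hdac3 stood at 48.6 ± 7.8 and 40.7 ± 3.9. It was lower in hypothalamus without overlap after joint scaling (-0.47) and overlapped as deposited (-0.24). In the methyl donor cycle, which supplies S-adenosylmethionine, 1 of 12 genes was called higher and 1 lower. By lack of overlap alone, 3 of the 12 were lower and 1 higher, against the same 27.7% and 25.7%. Cbs, which draws homocysteine out of the cycle, was at 24.3, 20.4, 23.6 and 18.5 FPKM in hippocampus and at 40.2, 63.8, 63.9 and 61.0 in hypothalamus, a difference of 1.12 ± 0.20 (SE). Mat2b, the regulatory subunit of methionine adenosyltransferase, was at 138, 185, 239 and 334 FPKM in hippocampus and at 40.3, 27.1, 28.1 and 29.1 in hypothalamus. Its difference was -2.98 ± 0.27 (SE), with 2 loci in the hippocampus table and 1 in that of hypothalamus. Ahcyl1 was at 94.3 ± 19.7 and 142 ± 24.0 FPKM. Its libraries overlapped after joint scaling, with a difference of 0.36, and lay higher in hypothalamus without overlap as deposited, with 0.59.

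**Figure D4:**
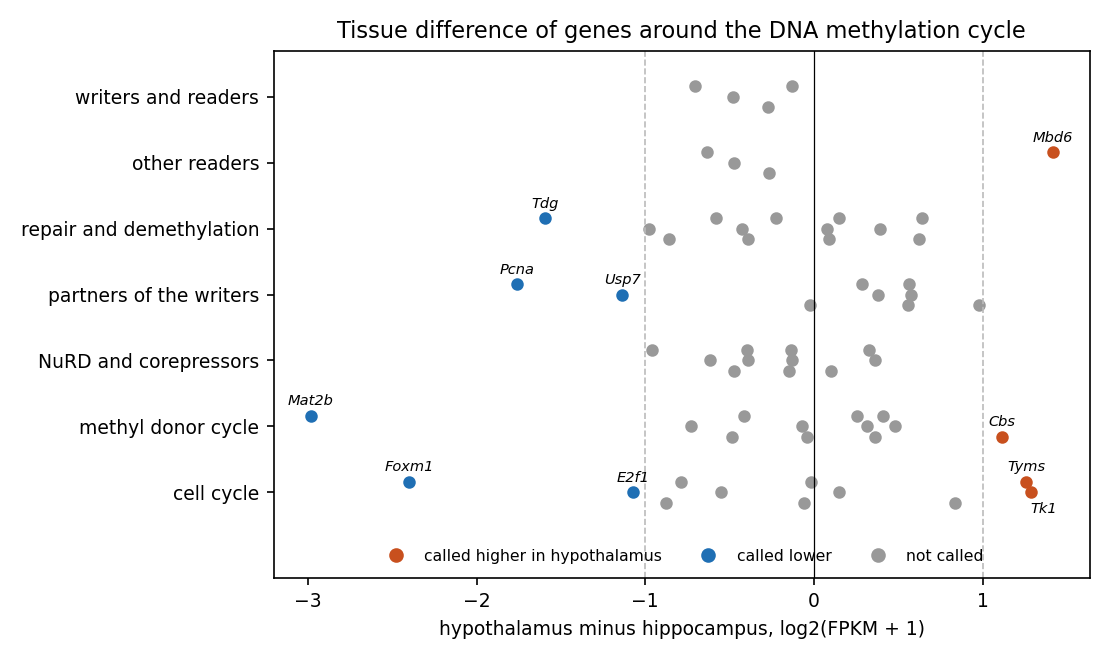
Difference of hypothalamus from hippocampus on the log2(FPKM + 1) scale for genes that passed the limit on level, by list; each point is a gene, orange called higher, blue called lower, grey not called, dashed lines the 2-fold limit, vertical jitter for legibility. All 4 writers and readers lie between -0.71 and -0.13, and Mat2b (-2.98) and Mbd6 (1.42) lie farthest out among the methylation lists.

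Dnmt1 and Uhrf1 are also genes of dividing cells, so 19 cell cycle genes were read beside them. Of 11 that passed the limit on level, 2 were called higher in hypothalamus (Tk1 at 1.29 and Tyms at 1.26) and 2 lower (Foxm1 at -2.40 and E2f1 at -1.07). Of all genes compared, 13.3% were called higher and 13.4% lower. Without the limit on size, 5 of the 11 were lower without overlap, Birc5 (-0.88), Ccnb1 (-0.79) and Mcm4 (-0.55) beside Foxm1 and E2f1, and 2 were higher. The shares of all genes compared were 27.7% lower and 25.7% higher. Over all 15892 shared symbols 19.8% were lower without overlap, and the share higher was not computed. Of the cell cycle genes under the limit on level, Top2a (-0.26) and Cdk1 (-0.33) were lower without overlap, and Mcm3 (0.33), Mcm5 (0.23) and Rrm2 (0.27) were higher. These genes, outside Foxm1 and E2f1, were chosen after their values were seen, and the part of dividing cells in the differences of Dnmt1 and Uhrf1 was not tested. The list summed to 36.9 to 46.9 FPKM in hippocampus and 41.3 to 46.6 in hypothalamus. Mcm7, a helicase subunit that with Tyms had the highest mean level of the list over both tissues, differed by -0.02 ± 0.21 (SE). Tyms came under 2-fold when the highest locus was used (0.74), and E2f1 did as deposited (-0.93), without hippocampus replicate 4 (-0.96) and without hippocampus replicates 3 and 4 (-0.91).

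The summed FPKM of several marker lists of cell types differed between the tissues, but single genes within these lists did not all change alike. Counts of called markers stand beside 13.3% of all genes compared called higher in hypothalamus and 13.4% lower. The 7 markers of neurons in general summed to 2241 to 2648 FPKM in hippocampus and 1525 to 1790 in hypothalamus, with 2 called lower (Syt1 and Nefl), 1 higher (Tubb3) and 4 neither. Without the limit on size, 5 of the 7 were lower without overlap, against 27.7% of all genes compared. Each of these 5 had 2 loci in the hippocampus table and 1 in that of hypothalamus. The other neuron markers, Tubb3 among them, had 1 locus in each table. The 3 genes given here were named after their values were seen. The 7 oligodendrocyte markers summed to 3727 to 5561 and 6086 to 9900 FPKM, with 1 called higher, 0 lower and 6 neither. The 7 astrocyte markers summed to 2482 to 2773 and 2389 to 2924, with 2 called higher, 1 lower and 4 neither. The 7 microglia markers summed to 128 to 211 FPKM in hippocampus and 225 to 282 in hypothalamus. Of these, 1 was called higher (C1qb, with means of 14.3 and 68.6 FPKM), 0 lower and 6 neither. C1qb had 2 loci in the hippocampus table and 1 in that of hypothalamus. The 6 ependymal markers summed to 115 to 195 and 408 to 589 FPKM, with 4 called higher, 1 lower (Foxj1, -1.42) and 1 neither. Vim alone had means of 41.6 FPKM in hippocampus and 368 in hypothalamus. C1qb, Foxj1 and Vim were also named after their values were seen. The 6 endothelial markers listed of 7 summed to 123 to 159 and 78.3 to 109 FPKM, with 3 called lower, 1 higher and 2 neither. The part of these cell types in the differences of Dnmt1, Uhrf1 and Mbd1 was not tested. In whole tissue, fewer cells of a type and less RNA per cell cannot be told apart. Without the hippocampus libraries that held choroid plexus markers, the differences were -0.53 for Dnmt1, -0.61 for Uhrf1 and -0.81 for Mbd1, each at least as large as with them.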

How the data were processed

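Libraries were made from poly-A selected RNA and read on an Illumina sequencer, as the labels' protocols state. For each tissue the authors deposited a table of FPKM per locus with a status beside each value, which was OK for every listed gene. The rat build rn5 and the tools Bowtie, Bowtie2, TopHat, TopHat2, Cuffdiff and Cufflinks are named in the submitters' processing notes, whose text gives no version here. For each symbol the FPKM of its loci were added, joint median-of-ratios factors were applied (0.892 to 0.950 in hippocampus, 1.07 to 1.12 in hypothalamus) and values were compared as log2(FPKM + 1), using Python 3.11.15, pandas 2.3.3 and numpy 2.4.6.

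Read numbers are unknown, so no counting interval is given. Ratios between libraries at loci below 0.05 FPKM fell on shared steps (tolerance 0.01 in natural log) for 90.0 to 94.4% of loci among replicates 2, 3 and 4, and for 9.02 to 13.5% in pairs with replicate 1. This gives relative depth alone: 1 fragment in hippocampus replicate 2 counted 1.35 times one in replicate 3. No p-value was computed across the tables. The rule was tested on simulated tables of 10554 genes, where it found 90% of genes changed by 1.5 on the log2 scale, 99% of those changed by 3, and 0.0676% of unchanged genes. The simulation drew independent noise for each gene. It held no outlying library, no split loci and no difference between the tables beyond a scaling factor per library. Its shares are therefore not error rates of the comparison made here.

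The members, lists, rule and settings were chosen with earlier results of these data known, and the setting without hippocampus replicates 3 and 4 and the rule without a size limit were added after the tables were seen. Beside the 9 genes, those named are the called genes of each list (up to 4, by size of difference), the 2 of each list with the highest level, and the 3 genes nearest to the most abundant listed gene and to the one with the largest difference. Genes of these lists that were not listed in both tables are not analysed here, and 1 further gene was taken out of the list of readers and is not reported here.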

Additional observations from a re-analysis of the deposited data

Results flagged for a closer look

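Mbd2 in hippocampus was marked because replicate 2, at 28.6 FPKM, lay far below the other 3 libraries at 38.9 to 40.7. The gap to its nearest neighbour was 0.849 of the whole range on the jointly scaled log2(FPKM + 1) scale, above Dixon's critical value for 4 libraries. Chance marks about 1 in 20 groups, and 12 were examined, so a single mark is no more than chance gives. Replicate 2 was also the hippocampus library farthest from the others over all genes.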

How the results depend on the processing

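No listed gene was called higher or lower under any of the 18 other settings, of which the replicate block is one; Uhrf1 also passed the limit on level without hypothalamus replicate 2 or 4, and Dnmt3a dropped out where symbols had to have a single locus in each table. The replicate block, in which the 4 same-numbered pairs had to differ in a single direction, also gave 0 higher and 0 lower, with 2 genes (as in the main comparison) whose pairs all went the same way. Same-numbered libraries correlated at -0.08 to 0.14 in their deviations from the tissue means, and libraries of unlike number at -0.20 to 0.20. Differences between libraries may be technical, so these values cannot tell whether same-numbered libraries came from the same animal. The median difference of -0.38 was -0.16 as deposited, -0.27 with upper-quartile scaling, -0.52 with 1 locus in each table, and -0.50 to -0.33 with a library left out. The order of the genes kept all 5 gaps in both tissues in each setting tried. Hippocampus shares moved to 70.7% (Dnmt1) and 28.4% (Dnmt3a) with the highest locus of a symbol, which leaves out the second locus or the first; with a library left out they ran from 61.6 to 64.8% and from 34.5 to 37.5%. Scaling moved the median of all genes from -0.04 to 0.07 (upper quartile) or 0.18 (as deposited). Over the other settings, counts called lower ran from 0 to 3 for repair genes, 0 to 2 for the methyl donor cycle, 0 to 1 for NuRD and corepressors and 1 to 4 for the cell cycle; the cause was not tested. With reads unknown, how well values near 0.1 FPKM (Dnmt3b) are known cannot be given.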

Other observations

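Near-empty loci were also found in the other table. Of 561 genes with 2 loci in the hypothalamus table, a single one in that of hippocampus and a mean of at least 1 FPKM, 114 (20.3%) had a locus with under 1% of the gene's value in replicate 1 and over 10% in each of the others, while replicates 2, 3 and 4 gave 0, 0 and 3 such genes. Replicate 1 of each tissue was also the library that did not share the steps among low values.

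The stress-induced Gadd45 genes, of which Gadd45b has been tied to active demethylation in mouse brain, were picked after their values were seen. Gadd45a was at 7.001, 5.74, 6.85 and 8.53 FPKM in hippocampus and at 18.5, 12.5, 11.6 and 11.3 in hypothalamus, where all libraries were higher without reaching the 2-fold limit (0.62). Gadd45b and Gadd45g overlapped, with differences of 0.08 and 0.15. Gadd45a had 2 loci in the hippocampus table and 1 in that of hypothalamus.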
